A study of Homo sapiens with 4 samples.

Results

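Immunoglobulin-like adhesion molecules are described here in MDA-MB-231, an established line of human breast cancer cells, and in LM2-4175, a line isolated from it that metastasizes to the lung. The set holds 10 genes of the 57815 in the deposited expression table, chosen by name: ICAM1, VCAM1, ALCAM, MCAM, L1CAM, NCAM1, CADM1, CADM3, CADM4 and CLMP. Both lines were untreated and were grown in the same serum-containing medium, and total RNA of each was sequenced in 2 libraries, 4 in all. The table gives 1 FPKM (fragments scaled by transcript length and by the mapped fragments of the library, a level that can be compared between genes) for each gene and cell line, with a lower and an upper bound. As the libraries of a line are combined in it, no value per library is shown, there is no replicate check, and the number of reads behind a value is not known. Each line stands only for itself, and LM2-4175 is a single derived line.

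Immunoglobulin-like adhesion molecules are surface proteins whose extracellular part is built of immunoglobulin folds. They bind the same protein on a neighbouring cell, another member of the family or an integrin, and their short cytoplasmic tails connect to the actin and spectrin skeleton. ICAM1 and VCAM1 are best known from inflamed endothelium, where leukocytes hold on to them, while NCAM1 and L1CAM are best known from neurons and the CADM proteins from epithelia and synapses.

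The change of a gene was calculated after adding 1 to each FPKM, as log2 of LM2-4175 over MDA-MB-231, which makes changes of weakly expressed genes look smaller than they are. Genes with a mean of at least 0.5 FPKM were tested, and those with a change of 1.5-fold or more whose deposited bounds lay apart were called. Of the 10 genes, 8 were tested, and CADM3 and NCAM1 were under the minimum. ICAM1, VCAM1, CADM1 and CLMP were called higher in LM2-4175 and none was called lower, against 4.67% of all 13911 genes tested called higher, 4.61% called lower and 9.27% called in either direction. The median change of the 8 genes was 0.97, and that of all genes tested was -0.04. With the fold alone, ALCAM and L1CAM were also past the threshold, both lower in LM2-4175, a direction in which 11.8% of all genes tested passed it.

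**Figure D1:**
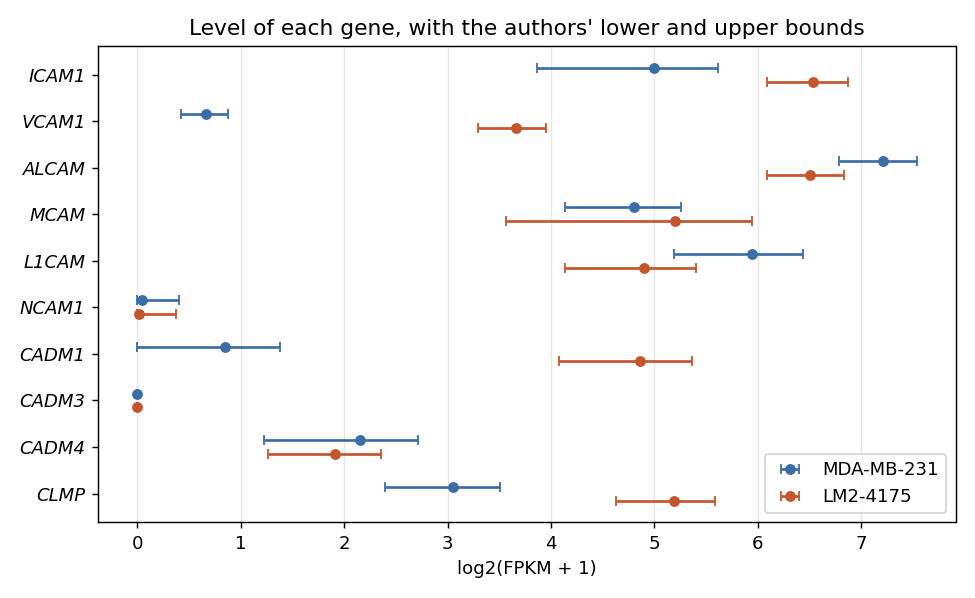
Level of the 10 adhesion genes, as log2(FPKM + 1) on the horizontal axis, in MDA-MB-231 (blue) and LM2-4175 (orange), with bars for the authors' lower and upper bounds. The bars stand apart for ICAM1, VCAM1, CADM1 and CLMP, and overlap for ALCAM, MCAM, L1CAM, NCAM1 and CADM4, while CADM3 is listed at 0 in both lines.

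The order of the levels differed between the lines. In MDA-MB-231, ALCAM was highest at 147 FPKM, followed by L1CAM at 60.7, ICAM1 at 30.8, MCAM at 26.8, CLMP at 7.32, CADM4 at 3.45, CADM1 at 0.798 and VCAM1 at 0.585 FPKM. Among neighbours in this order, the bounds stood apart between ALCAM and L1CAM, between MCAM and CLMP and between VCAM1 and NCAM1, and overlapped elsewhere. In LM2-4175, ICAM1 was highest at 91.5 FPKM, and ALCAM followed at 90.0 with bounds that overlap those of ICAM1. MCAM at 35.7, CLMP at 35.5, L1CAM at 28.9 and CADM1 at 28.1 FPKM formed a group in which each neighbour's bounds overlapped the next. VCAM1 followed at 11.6 FPKM, with bounds apart from those of CLMP, L1CAM and CADM1 but within reach of the wide bounds of MCAM, and CADM4 at 2.76 FPKM had bounds below those of VCAM1.

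Summed over the 10 genes, FPKM was 277 for MDA-MB-231 and 324 for LM2-4175, a ratio of 1.17, while the sum over all genes had a ratio of 0.945. The makeup of the sum shifted more than its size. ALCAM and L1CAM together held 74.8% of it in MDA-MB-231 and 36.7% in LM2-4175. The 4 genes called higher held 14.3% and 51.4%, which restates their calls as shares. Shares of 1 sum are tied together, so a rise of these 4 lowers the shares of the others. The sums themselves have no bounds. ICAM1 alone went from 11.1% to 28.2% and ALCAM from 52.9% to 27.8%.

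**Figure D2:**
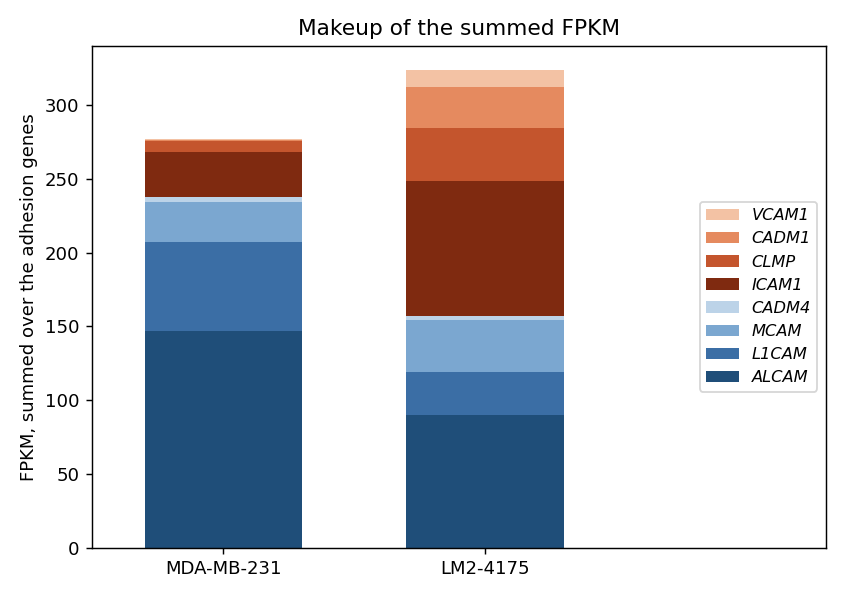
FPKM summed over the adhesion genes (vertical axis) in each cell line, with 1 colour per gene. Blue shades (ALCAM, L1CAM, MCAM, CADM4) make up most of the bar of MDA-MB-231 and orange and brown shades (ICAM1, CLMP, CADM1, VCAM1) 51.4% of that of LM2-4175. NCAM1 and CADM3 are too low to be drawn.

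ICAM1 and VCAM1 encode ligands of leukocyte integrins, and both were higher in LM2-4175. ICAM1 (ENSG00000090339, chromosome 19 of GRCh37, 10381769 to 10397291, plus strand) was expressed at 30.8 FPKM (bounds 13.6 and 48.1) in MDA-MB-231, compared with 91.5 FPKM (bounds 66.9 and 116) in LM2-4175. The ratio was 2.97, the log2 change 1.54, and the lower bound in LM2-4175 was 1.39 times the upper bound in MDA-MB-231. ICAM1 was thus the abundant gene of the pair in both lines, and it moved from rank 3653 to rank 1039 among all genes ordered by FPKM. VCAM1 (ENSG00000162692, chromosome 1, 101185298 to 101204601, plus strand) was close to the minimum for testing in MDA-MB-231, with 0.585 FPKM (bounds 0.338 and 0.831). In LM2-4175 it was expressed at 11.6 FPKM (bounds 8.80 and 14.5). The ratio was 19.9, and 10.6 between the nearest bounds, and the log2 change was 2.99. VCAM1 had the smaller level of the pair and the larger change, and its increase ranked 56 among the 13911 genes tested, where that of ICAM1 ranked 256.

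In the GENCODE annotation on GRCh37, exons of the antisense genes LIMASI and ICAM4-AS1 cover 25.4% of the exon bases of ICAM1. These were listed at 0.000294 and 0 FPKM in MDA-MB-231, and the values for LM2-4175 were 0.000835 and 0 FPKM. Exons of other genes also cover 36.6% of the exon bases of CADM3, 10.97% of L1CAM, 7.89% of NCAM1, 6.86% of MCAM and 4.01% of CLMP, and none of VCAM1, CADM1, CADM4 and ALCAM. The genes that overlap L1CAM and CLMP in this annotation have no row in the deposited values. Of these, ENSG00000284987 lies on the same strand as L1CAM. How reads of overlapping genes were assigned is not stated in the sources used here.

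Because both genes were called higher and both are in the RefSeq promoter table, the bases upstream of their first exons are shown, with matches to GGNNNTTCC (a pattern that holds many NF-kB sites) and to TTCNNNGAA (the spaced palindrome that STAT factors bind) in capitals. The ICAM1 sequence lies at chr19:10381546-10381768 and the VCAM1 sequence at chr1:101185048-101185297, both on the plus strand of GRCh37, where each matched once without a mismatch. Both run 5′ to 3′ and stop before the first exon that the annotation gives for the gene, which for ICAM1 leaves out the last 27 bases before the RefSeq start.
ICAM1: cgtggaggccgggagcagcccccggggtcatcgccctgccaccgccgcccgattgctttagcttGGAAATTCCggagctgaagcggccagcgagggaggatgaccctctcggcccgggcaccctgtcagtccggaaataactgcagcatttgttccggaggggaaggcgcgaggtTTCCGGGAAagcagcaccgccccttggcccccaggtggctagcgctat
VCAM1: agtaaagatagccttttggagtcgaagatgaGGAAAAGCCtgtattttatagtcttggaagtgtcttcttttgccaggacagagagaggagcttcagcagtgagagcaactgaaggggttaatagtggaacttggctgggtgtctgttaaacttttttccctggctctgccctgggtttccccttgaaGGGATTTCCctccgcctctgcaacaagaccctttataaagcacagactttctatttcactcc
In ICAM1, GGNNNTTCC matched from 186 to 178 bases before the RefSeq start, where the stretch fits on both strands, and TTCNNNGAA from 75 to 67 bases before it. In VCAM1, GGNNNTTCC matched from 62 to 54 bases before the start on the plus strand and from 219 to 211 bases on the minus strand, and TTCNNNGAA was not found. Of 34788 promoters of 250 bases in the table, searched on both strands, 17.1% hold GGNNNTTCC and 6.57% hold TTCNNNGAA. Among the 7 genes of the set that are in the table, GGNNNTTCC was found in ICAM1 and VCAM1 and not in ALCAM, MCAM, L1CAM, CADM3 and CADM4. TATAAA, which in ICAM1 runs past the end of the printed bases, was also found in both ICAM1 and VCAM1 and in none of these other 5, against 10.8% of all promoters. The AP-1 pattern TGAGTCA was in none of the 7 (4.21% of all), and GCCNNNGGC, a pattern of TFAP2 factors, was in MCAM (19.8% of all). These matches are letters in a window and are not measured binding. CADM1, CLMP and NCAM1 are not in the promoter table and were not searched. CADM1 and CLMP, which were also called higher, therefore have no result for any of these patterns.

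Genes that are induced together with ICAM1 and VCAM1 by inflammatory signals were compared from a list of 14. Of 12 tested, 4 were called higher, 1 was called lower and 7 were not called, with a median change of 0.43. The share called was 41.7%, against 9.27% of all genes tested. The list was chosen with earlier results of these data known, so this share is a description and not independent support. IL8, a neutrophil chemokine, was higher (7.75 FPKM with bounds of 5.33 to 10.2 against 338 FPKM with bounds of 260 to 417). TNFAIP3, an inhibitor of NF-kB signalling, was also higher, from 2.72 to 11.2 FPKM, as were BIRC3, an inhibitor of apoptosis, from 10.1 to 24.96 FPKM, and NFKBIA. The calls were in both directions. CX3CL1, a membrane-bound chemokine, was called lower, from 5.31 FPKM (3.84 to 6.79) to 0.330 FPKM (0.134 to 0.527), and the endothelial selectins SELE and SELP were under the minimum in both lines. None of the 5 genes for NF-kB subunits was called, with changes of 0.76 for NFKB2, 0.50 for NFKB1, 0.36 for REL, 0.27 for RELB and -0.19 for RELA. With the fold alone, NFKB2 was past the threshold as well, and 3 genes of the list in place of 1 were lower. By that rule 22.1% of all genes tested were called.

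Markers of the cells that are known for VCAM1 and ICAM1 were examined beside these values. Of 6 endothelial markers, PECAM1 had no row under that name, and the other 5 summed to 1.41 FPKM in MDA-MB-231 and 6.47 FPKM in LM2-4175. CDH5, VWF and TEK lay between 0.0117 and 0.0857 FPKM in both lines, while TIE1 (0.332 to 3.81 FPKM) and KDR (0.971 to 2.48 FPKM), the 2 that were tested, were both called higher. Of 5 leukocyte markers, CD3E was listed at 0 in both lines, and the sum was 1.70 and 1.94 FPKM. Most of it was CD14, at 1.17 and 1.75 FPKM, which was not called, and PTPRC, MS4A1 and LYZ were under the minimum. The part of other cells in the levels of ICAM1 and VCAM1 was not tested, and in such bulk RNA fewer cells that express a gene and less RNA per cell cannot be told apart. A few markers of such lines were read as well, which describe the lines but cannot establish the identity of either. VIM had 1355 and 1768 FPKM, CD44 470 and 355 FPKM and EGFR 41.4 and 54.3 FPKM. ESR1 and PGR were under 0.04 FPKM in both lines, and GATA3 had 3.10 and 2.42 FPKM. ERBB2 had 35.0 and 22.8 FPKM, CDH1 0.851 and 0.366 FPKM, and CAV1 and KRT18 were called lower in LM2-4175.

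ALCAM, MCAM, L1CAM and NCAM1 were not called. ALCAM (ENSG00000170017, chromosome 3, 105085753 to 105295744, plus strand) binds CD6 on lymphocytes and ALCAM on neighbouring cells. MDA-MB-231 expressed it at 147 FPKM (109 to 184) and LM2-4175 at 90.0 FPKM (67.0 to 113), 1.63 times as much in MDA-MB-231, with a log2 change of -0.70. The bounds overlap by 3.85 FPKM. L1CAM (ENSG00000198910, chromosome X, 153126969 to 153151627, minus strand), a neural adhesion protein that is also found in many tumours, lay at 60.7 FPKM (35.6 to 85.7) in MDA-MB-231, while LM2-4175 expressed it at 28.9 FPKM (16.5 to 41.2). The level in MDA-MB-231 was 2.10 times that in LM2-4175, the log2 change was -1.04, and the bounds overlap by 5.66 FPKM. With a rule that asks whether the difference lies beyond the 95% limit of the normal distribution, taking the bounds as 2 standard errors, both genes were called lower, as were 9.09% of all genes tested. ALCAM and L1CAM are therefore the genes of the set nearest to the threshold from outside, and ICAM1 the one nearest from inside.

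MCAM (ENSG00000076706, chromosome 11, 119179239 to 119192231, minus strand), an adhesion protein of endothelium and melanoma that binds laminin, lay at 26.8 FPKM (16.5 to 37.1) in MDA-MB-231, compared with 35.7 FPKM in LM2-4175, where its bounds of 10.8 to 60.6 were wide. The log2 change of 0.40 had possible values of -1.69 to 1.81 between the extremes of the bounds. CBL, whose exons overlap MCAM on the other strand, had 11.3 and 13.5 FPKM. Of 4 markers of mural cells, where MCAM is also known, CSPG4 was called higher (7.45 to 12.6 FPKM) and PDGFRB lower (9.44 to 1.91 FPKM). RGS5 and ACTA2 were not called. The sum of all 4 markers was 26.6 and 22.3 FPKM, but the part of such cells was not tested. NCAM1 (ENSG00000149294, chromosome 11, 112831997 to 113149158, plus strand) was at 0.0301 FPKM in MDA-MB-231, compared with 0.00990 FPKM in LM2-4175, with upper bounds of 0.321 and 0.297 FPKM. No difference in NCAM1 was detectable at this precision.

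**Figure D3:**
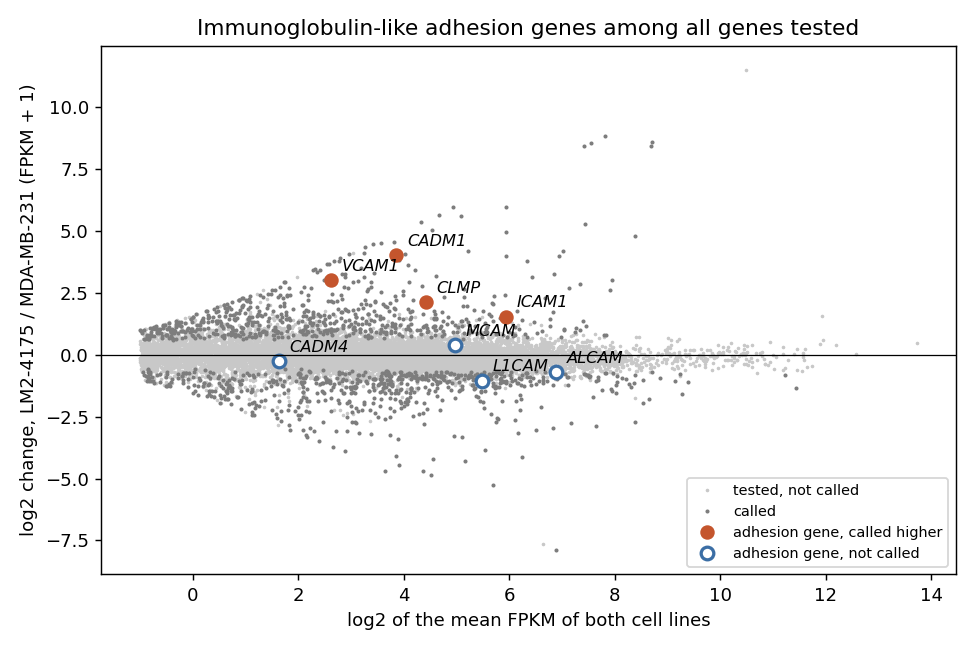
Log2 change between the cell lines (vertical axis, on FPKM + 1) against log2 of the mean FPKM of both lines (horizontal axis) for the 13911 genes tested, in light grey where not called and dark grey where called. ICAM1, VCAM1, CADM1 and CLMP (orange) lie at changes of 1.54 to 4.02, and ALCAM, L1CAM, MCAM and CADM4 (open blue circles) at -1.04 to 0.40.

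The CADM proteins form a family of nectin-like adhesion molecules whose tails bind protein 4.1 and PDZ scaffolds, and CADM1 was the 1 member of the family called. CADM1 (ENSG00000182985, chromosome 11, 115039938 to 115375675, minus strand) binds CADM1, nectin-3 and the lymphocyte receptor CRTAM. Its level was 0.798 FPKM (bounds 0 and 1.61) in MDA-MB-231 and 28.1 FPKM (bounds 15.9 and 40.3) in LM2-4175. As the lower bound in MDA-MB-231 is 0, the ratio of 35.2 has no upper limit from the bounds, and between the nearest bounds it was 9.85. The log2 change was 4.02 on FPKM + 1 and 5.14 without a pseudocount, and the increase ranked 26 among the 13911 genes tested, ahead of VCAM1, CLMP and ICAM1. CADM1 moved from rank 12875 to rank 3741 of all genes by FPKM.

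CADM4 (ENSG00000105767, chromosome 19, 44126520 to 44144002, minus strand), which takes part in contacts between myelinating glia and axons, stayed low in both lines. Its level was 3.45 FPKM (1.34 to 5.55) in MDA-MB-231, compared with 2.76 FPKM (1.40 to 4.11) in LM2-4175, with a log2 change of -0.24 with possible values of -1.45 to 1.13. CADM3 (ENSG00000162706, chromosome 1, 159141399 to 159173103, plus strand), a neural member, was listed at 0 in both lines, and CADM2 had 0.00127 and 0.0151 FPKM. In MDA-MB-231 the bounds of CADM4 and CADM1 overlap, and in LM2-4175 CADM1 lay above CADM4 with bounds that stand apart. Whether the difference between CADM1 and CADM4 in their change exceeds the spread between libraries was not tested.

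CLMP (ENSG00000166250, chromosome 11, 122940580 to 123065956, minus strand) encodes a protein of cell junctions related to the coxsackie and adenovirus receptor CXADR. It rose from 7.32 FPKM (bounds 4.27 and 10.4) to 35.5 FPKM (bounds 23.8 and 47.2), by a ratio of 4.85 that was 2.29 between the nearest bounds, with a log2 change of 2.13 that ranked 125. CXADR itself lay at 2.78 FPKM (1.47 to 4.09) in MDA-MB-231, compared with 1.61 FPKM (0.828 to 2.40) in LM2-4175, and was not called. The authors also list primers for quantitative PCR of CLMP. They describe that assay in LM2-4175 cells after knock-down of LMO4, so it did not compare the 2 lines, and it is not used here. The primers are shown because they mark the stretch of the transcript that the assay reads.
forward: tcctactatgttggaaccttggg
reverse: cggtgagcagccattcaatatc
The forward primer matched at chr11:122968636-122968658 and the reverse primer at chr11:122968526-122968547 of GRCh37, without a mismatch, in exon 2 of the 7 exons of the CLMP transcript ENST00000448775. Both lie in its coding sequence, and the product is 133 bases long with the primers included. The primers also matched in exon 1 of the CLMP transcript ENST00000529128, outside any coding sequence, with a product of the same length.

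NCAM1, CADM1, MCAM and CLMP lie on the same arm of chromosome 11. From the start site of CADM1, that of NCAM1 is 2.54 Mb away on the side towards the centromere, and those of MCAM and CLMP are 3.82 and 7.69 Mb away on the other side. CADM1 and CLMP, at 4.02 and 2.13, had the largest increases in the window of 10 Mb to either side. The other 102 protein-coding genes tested there had a median change of -0.23, with 6 called higher and 10 called lower. The share called among them was 15.7%, against 9.27% of all genes tested. Counted from the ends of each gene rather than from its start site, 4 protein-coding genes were tested within 1 Mb of CADM1, with a median of -0.41, and 6 within 1 Mb of CLMP, with a median of -0.52. Both genes increased while the medians of these 4 and 6 neighbours were below 0, and a cause in the region was not tested. Within 3 Mb of CLMP, 31 genes had a median of -0.30, but 4 of them were called higher and 6 lower. Over all genes tested, 4.67% were called higher and 4.61% lower. Those called higher near CLMP included ROBO4 at 1.98, SLC37A2 at 1.76 and ROBO3 at 1.52. Within 3 Mb of CADM1, 24 genes had a median of -0.35, with 0 called higher and 2 lower.

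**Figure D4:**
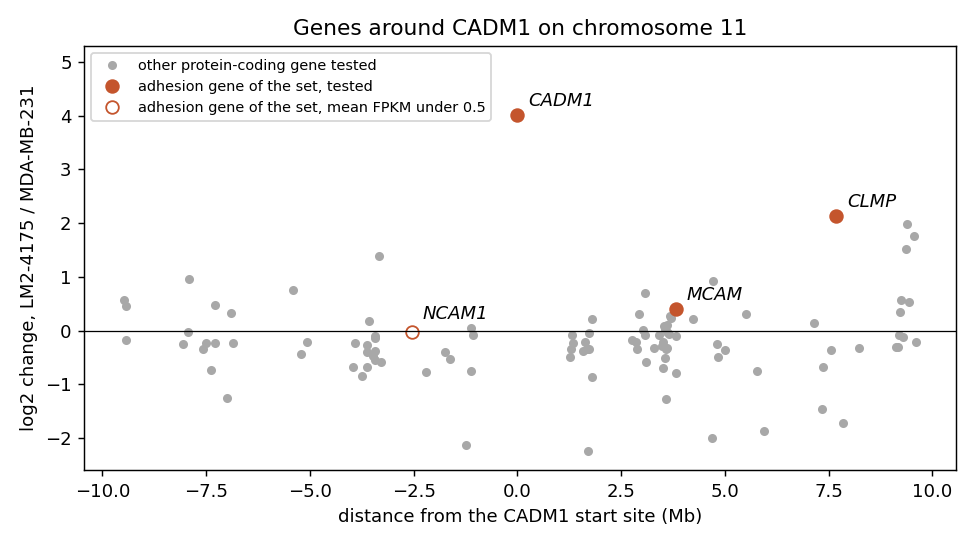
Log2 change between the cell lines (vertical axis) against the distance from the start site of CADM1 in Mb (horizontal axis) for the protein-coding genes tested on chromosome 11. CADM1 at 4.02 and CLMP at 2.13 stand above all other genes shown, MCAM lies at 0.40 and NCAM1 (open circle, under the minimum FPKM) at -0.03.

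Neighbours of the other genes were counted in the same way. The median of 49 genes within 1 Mb of ICAM1 was -0.02 and that of 13 genes around VCAM1 was 0.06, while the 2 genes themselves changed by 1.54 and 2.99. L1CAM, lower in LM2-4175 by 1.04 on the log2 scale without a call, lies among 32 genes on chromosome X of which 27 had changes above 0 and 5 below, with a median of 0.29. The single gene tested within 1 Mb of ALCAM had a change of -0.75, and the 6 within 3 Mb all had changes below 0, with a median of -0.26. Around CADM3, listed at 0 itself, 7 genes had a median of -0.61.

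Genes that work with the 10 adhesion molecules were compared from lists of related genes. These lists were also chosen with earlier results of these data known, and their shares are descriptions. Among 56 other adhesion genes of the immunoglobulin superfamily, 28 entries were tested, of which 2 were called higher and 3 lower, with a median of -0.07. ICAM2, another integrin ligand of the ICAM family, was higher, from 5.31 FPKM (3.31 to 7.31) to 15.5 FPKM (10.9 to 20.1). ICAM3 and ICAM5 had changes of 0.17 and 0.28 and ICAM4 had 4.75 and 0.313 FPKM with overlapping bounds, and none of these was called. CNTN1, a contactin of neurons, was called higher at a low level (0.0602 to 1.66 FPKM). The neural genes NTM (5.95 to 0.418 FPKM) and NCAM2 (2.79 to 0.354 FPKM), and BCAM, a laminin receptor (18.7 to 7.79 FPKM), were called lower. The share called was 17.9%, against 9.27% of all genes tested.

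Of the extracellular partners, 10 of 19 entries for 18 genes were tested, with 1 called higher and 1 lower, or 20% against 9.27% of all genes tested. ITGB2, the beta chain of the leukocyte integrins that bind ICAM1, was higher, from 3.93 FPKM (2.25 to 5.60) to 13.1 FPKM (8.14 to 18.0). Its alpha chains ITGAL, ITGAM and ITGAX were all under 0.14 FPKM in both lines. ITGA4, the alpha chain that binds VCAM1, was also close to 0, at 0.0216 and 0.00917 FPKM, while its beta chain ITGB1 had 667 and 759 FPKM. CRTAM, the partner of CADM1, was called lower, from 1.97 FPKM (0.875 to 3.07) to 0.0818 FPKM (0 to 0.183), the direction opposite to that of CADM1. PVRL3, which encodes nectin-3, had 30.9 and 25.1 FPKM with overlapping bounds.

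Of 17 genes for cytoplasmic partners, 16 were tested, and 1 was called higher and 3 lower, with a median of 0.10. These make 25% of the genes tested in the list, against the 9.27% of all genes. CASK, a PDZ scaffold that binds CADM1, was lower, from 32.8 FPKM (21.2 to 44.4) to 11.4 FPKM (8.10 to 14.8). EZR, which encodes ezrin, a linker of membrane proteins to actin, was lower as well (177 to 95.3 FPKM), as was SPTBN1, a spectrin (101 to 60.7 FPKM), whose call was lost when both lines were scaled to the same sum or to a median ratio of 1. ANK2, an ankyrin of the family that holds L1CAM, was higher, from 2.65 FPKM (1.54 to 3.76) to 8.77 FPKM (6.47 to 11.1). EPB41L3, the protein 4.1 best known for binding CADM1, was under the minimum at 0.0811 and 0.449 FPKM, and MPP3, another of its scaffolds, had 7.11 and 5.11 FPKM.

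Proteases that release the outer part of such molecules were all tested, 7 of 7, with 1 called higher and 1 lower, which is 28.6% against 9.27% of all genes tested. ADAM10, which cleaves L1CAM, was lower, from 79.4 FPKM (57.9 to 101) to 37.7 FPKM (27.4 to 48.0). ADAM17, which cleaves ALCAM, VCAM1 and ICAM1, had 15.03 FPKM (10.4 to 19.7) and 15.6 FPKM (11.4 to 19.8). MMP9 was called higher at a low level (0.189 to 0.907 FPKM). Of the polysialyltransferases that modify NCAM1, ST8SIA4 had 1.41 FPKM (0.467 to 2.35) and 3.12 FPKM (2.20 to 4.04) and was not called, and ST8SIA2 was at or near 0.

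**Figure D5:**
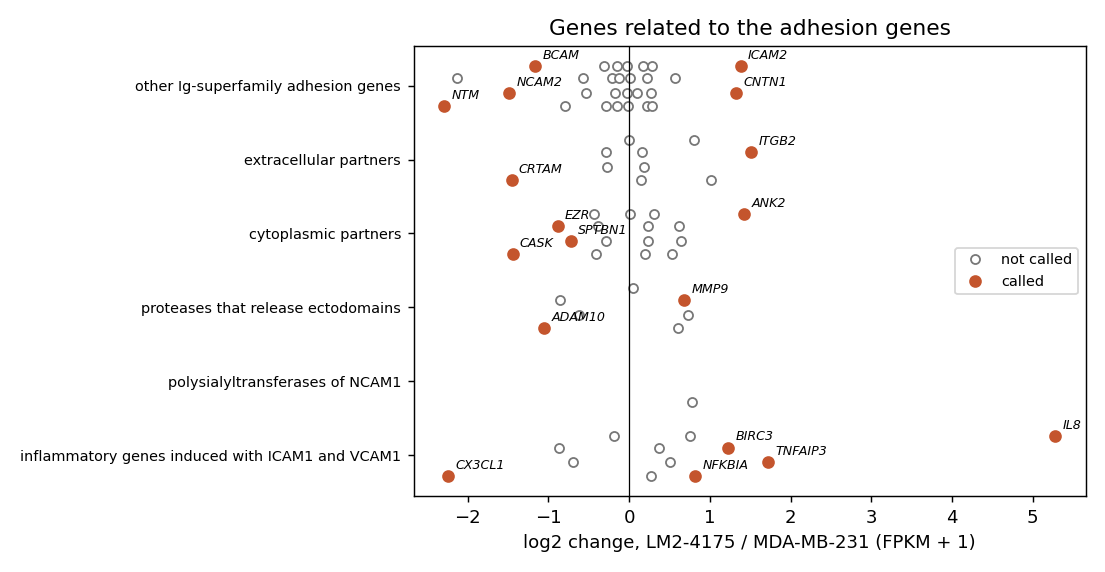
Log2 change between the cell lines (horizontal axis, on FPKM + 1) of the tested genes of each related list, filled and named where called and open where not. Calls in both directions occur in the lists of other adhesion genes, extracellular partners, cytoplasmic partners, proteases and inflammatory genes, and IL8 lies farthest to the right at 5.28.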

How the data were processed

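RNA-Seq of 2 libraries of MDA-MB-231 and 2 of LM2-4175 was used. The authors used TruSeq libraries and paired reads, mapped to hg19 with TopHat2, and quantified GENCODE genes as FPKM with Cufflinks. They identified differentially expressed genes between the lines with Cuffdiff, and those test results are not used here. The submitters' processing notes also name TopHat2 and Cuffdiff. The deposited FPKM and its bounds are 1 value each per gene and cell line, with the libraries combined. The method of library normalization, the use of strand and what the bounds cover are not given in the sources used here. The table was read in Python 3.11.15 with NumPy 2.4.6 and pandas 2.3.3, and Matplotlib 3.10.9 drew the figures. All genes of status OK with a mean of at least 0.5 FPKM were tested with a pseudocount of 1, and called at 1.5-fold with bounds apart. This compares pooled libraries, so no p-value is given. limma, planned for values per library, was not run. For the 95% limit, the upper bound was read as 2 standard errors above the value. Positions are from GENCODE 44 on GRCh37, the build of hg19. Promoters are from the RefSeq table of GRCh38.p14, in which 7 of the 10 genes were found, and were located on GRCh37 by exact match. The genes, lists and rules were chosen with earlier results of these data known. All 10 genes are described, and of each related list up to 5 called genes are named, with others chosen after their values were seen. In the leukocyte list, 1 marker is not reported here. The steps were tested on simulated data.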

Additional observations from a re-analysis of the deposited data

How the results depend on the processing

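The calls of ICAM1, VCAM1, CADM1 and CLMP held under 10 other settings and under the 95% limit of the difference, a rule that was added after seeing the data. MCAM and CADM4 were called under none of those in which they were tested. ALCAM (-0.70) and L1CAM (-1.04) were called lower with the fold alone and by the 95% limit, since neither rule asks for bounds apart, which made 2 genes of the set lower in place of 0. The change of CADM1 ranged from 4.02 to 5.14 and that of VCAM1 from 2.99 to 4.31, both largest without a pseudocount, and no direction reversed. Scaling to the same sum moved the median of all genes by 0.07, and under it and a median ratio of 1 the call of SPTBN1 alone was lost among the related genes, and none was gained.

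Over all genes, 649 were higher and 641 lower. The fold alone gave 1434 and 1640, the 95% limit 1054 and 1264, a threshold of 2-fold 450 and 403, a mean of at least 5 FPKM 321 and 443, scaling to the same sum 737 and 541, and a median ratio of 1 734 and 544. With the fold alone, counts higher rose from 1 to 3 for extracellular partners, cytoplasmic partners and proteases, and from 4 to 5 for inflammatory genes. Counts lower rose from 3 to 5 for other adhesion genes, from 1 to 3 for proteases and from 1 to 3 for inflammatory genes. The 95% limit gave the same counts with these exceptions: 2 extracellular partners higher, 3 other adhesion genes higher in place of 2, and no such rise in proteases lower. Both rules called ST8SIA4. At a mean of at least 5 FPKM the calls of CRTAM, CX3CL1, MMP9, CNTN1, NTM and NCAM2 were lost because the genes were not tested, and at 1 FPKM those of CNTN1 and MMP9. At 2-fold, 1 cytoplasmic partner in place of 3 was lower, and no protease was higher. The median around CADM4 was 0.09 within 1 Mb and -0.22 within 3 Mb.

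No paired analysis was possible because the columns carry no replicate, and leaving out replicates was not run for the same reason. The authors list the aligned read pairs of each library, but the expression table does not give the reads behind each value. Precision therefore rests on the bounds. Their distance above the value had a median of 38.6% in MDA-MB-231 and 38.1% in LM2-4175 over the genes tested.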
